A study of Mus musculus with 3072 samples.

Results

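A set of 8 genes of red cell membrane transport and carbonic anhydrase chemistry was followed through 3 sorted bone marrow populations of mice with and without acute platelet depletion. Its members were Car1 and Car2, Aqp1 and Aqp9, Slc14a1, Slc4a1, Rhd and Ermap, taken by symbol from the deposited count matrix, where all 8 were found among 55291 symbols, each on 1 row. The set was chosen partly on measured values, namely higher Aqp1 in depleted MkP cells and higher Aqp9 in depleted CFU cells, so the differences between depleted and control mice in MkP and CFU are described here without a test. The comparisons between populations and the comparison between treatments in HSC cells were not used in that choice and were tested.

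The animals were C57BL/6 mice of WT genotype that had received barcoded stem cells by transplantation, and all cells came from bone marrow. The 4 control mice were sampled 32 weeks after transplantation and the 4 platelet_depleted mice 28 weeks after it. Treatment, week and experiment code coincided, so they cannot be told apart. The labels gave neither the depleting agent nor the time between depletion and sampling, and they did not spell out the population names HSC, CFU and MkP or name the sorting antibodies. Single cells had been sorted into lysis buffer and turned into Smart-seq2 libraries, a full-length cDNA method for single cells, with 96 HSC, 96 CFU and 192 MkP wells per mouse.

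Red cells carry carbon dioxide as bicarbonate. Carbonic anhydrases interconvert the gas and bicarbonate inside the cell, and the anion exchanger band 3, encoded by Slc4a1, swaps bicarbonate for chloride across the membrane. Water crosses through aquaporin 1, urea through the urea transporter encoded by Slc14a1, and water, glycerol and other small solutes through aquaporin 9, which in mice is a glycerol channel of red cells and liver. Rhd and Ermap encode membrane proteins known in people as carriers of the Rh and Scianna blood groups, and the Rh protein sits in the membrane together with the Rh-associated glycoprotein Rhag. During red cell formation most of these genes are switched on in erythroid precursors, and the hemoglobin and band 3 genes reach their highest levels late.

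After filtering 2668 wells were kept and 401 removed, with 24105 to 6910788 counts per cell and a median of 1718305. The counts of a mouse's kept cells were added up within each population. The 24 sums held 68792249 to 327869432 counts, and levels of genes are CPM of these sums, counts scaled to a fixed library total with TMM factors. Sums of marker lists, values of single cells and values in CFU cells split by a marker list are plain CPM without these factors. Marker lists for stem cells, megakaryocytes and erythroid cells summed highest in HSC, MkP and CFU in that order, and HSC also held megakaryocyte markers. A list of 7 stem cell markers summed to between 698 and 1509 CPM in HSC and to at most 171 CPM elsewhere, 7 megakaryocyte markers to between 3574 and 5849 CPM in MkP, 1332 and 1900 CPM in HSC and at most 24.7 CPM in CFU, and 6 erythroid markers to between 1321 and 1703 CPM in CFU. CFU are accordingly described as cells with erythroid markers. A list of 9 neutrophil and myeloid markers summed to between 2.03 and 4016 CPM in the CFU of a mouse. In control mouse 3 its sum of 4016 CPM exceeded that of the erythroid list, 1321 CPM. Over all control mice, 1 of 300 CFU cells held most of the neutrophil and myeloid list, and 142 of 300 held most of the erythroid list. How many cells set the sum in control mouse 3 was not tested. The median number of genes per cell was lower in every depleted mouse than in every control mouse in CFU (7579 to 8242 against 8301 to 8508.5) and in MkP (5509 to 6180 against 6557 to 7171.5).

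Of the 8 genes 4 had a RefSeq promoter window, here the 250 bases before the transcription start on GRCm38.p6, and these are shown because Rhd, Ermap and Aqp1 differed most in level between populations among the genes with a window and Aqp9 was chosen for its level in CFU. GATA factors and Klf1 are transcription factors of erythroid cells, and capitals mark every match to 2 motifs on either strand, the letters GATA with A or T before them and A or G after them, and the CACCC-type letters CCNCNCCC. Rhd lies at chr4:134864286-134864535 on the plus strand, Ermap at chr4:119189996-119190245 on the minus strand, Aqp1 at chr6:55336049-55336298 on the plus strand and Aqp9 at chr9:71162634-71162883 on the minus strand.
Rhd: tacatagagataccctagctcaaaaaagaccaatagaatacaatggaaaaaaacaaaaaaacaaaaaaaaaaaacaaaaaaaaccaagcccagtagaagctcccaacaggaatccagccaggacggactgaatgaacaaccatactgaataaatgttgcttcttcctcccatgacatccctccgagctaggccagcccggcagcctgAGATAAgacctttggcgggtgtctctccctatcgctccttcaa
Ermap: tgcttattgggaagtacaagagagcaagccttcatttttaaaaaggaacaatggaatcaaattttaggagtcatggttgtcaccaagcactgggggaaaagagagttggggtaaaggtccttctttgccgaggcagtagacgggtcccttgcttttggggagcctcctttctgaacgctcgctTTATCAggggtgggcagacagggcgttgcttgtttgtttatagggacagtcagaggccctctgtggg
Aqp1: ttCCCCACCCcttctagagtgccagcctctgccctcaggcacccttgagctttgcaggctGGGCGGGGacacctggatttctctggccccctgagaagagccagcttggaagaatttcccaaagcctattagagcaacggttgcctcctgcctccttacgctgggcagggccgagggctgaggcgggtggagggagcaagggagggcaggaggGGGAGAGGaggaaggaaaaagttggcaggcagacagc
Aqp9: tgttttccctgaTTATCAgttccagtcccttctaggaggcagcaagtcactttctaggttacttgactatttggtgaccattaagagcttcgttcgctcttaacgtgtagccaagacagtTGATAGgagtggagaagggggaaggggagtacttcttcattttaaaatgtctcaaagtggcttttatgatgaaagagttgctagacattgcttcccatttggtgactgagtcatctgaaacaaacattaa
The Rhd window held 1 GATA match, AGATAA, at 43 to 38 bases before the start, and the Ermap window held 1, on the other strand and so printed as TTATCA, at 67 to 62 bases before it. In the printed Aqp9 window 2 GATA matches lay at 238 to 233 and 130 to 125 bases before the start. A second Aqp9 window, at chr9:71163290-71163539 and not printed, held 0 GATA matches. It held 1 CCNCNCCC match, at 28 to 21 bases before its own start. The Aqp1 window held no GATA match and 3 CCNCNCCC matches, at 248 to 241, 190 to 183 and 37 to 30 bases before the start. Among all 32851 RefSeq windows of this length, 26.5% held a GATA match and 45.9% a CCNCNCCC match, so either is common, and a match is a run of letters, not a measured binding site.

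All 8 genes were higher in CFU than in HSC, and 7 of 8 were higher in CFU than in MkP. The exception was the urea transporter gene Slc14a1, which was highest in MkP. A gene was called where its Benjamini-Hochberg adjusted p over the 19573 genes tested was under 0.05, from the quasi-likelihood test of edgeR. Between CFU and HSC 8 of 8 genes were called higher, against 28.8% of all genes called higher and 36.1% called lower. MkP against HSC gave 5 called higher and 1 lower, where 17.4% of all genes were called higher and 13.6% lower. Between CFU and MkP 7 were called higher and 1 lower, where 23.5% of all genes were called higher and 31.8% lower. The median log2 fold change of the 8 genes was 6.20 between CFU and HSC, 2.49 between MkP and HSC and 3.50 between CFU and MkP (first over second), beside -0.23, 0.01 and -0.21 over all genes tested. The 3 populations of a mouse come from the same animal, and the labels give each mouse by a code in the well titles. The main fit between populations held treatment but no term for the mouse, so its p-values take the 24 sums as separate units. Calls that changed with the mouse as block are given below.

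**Figure D1:**
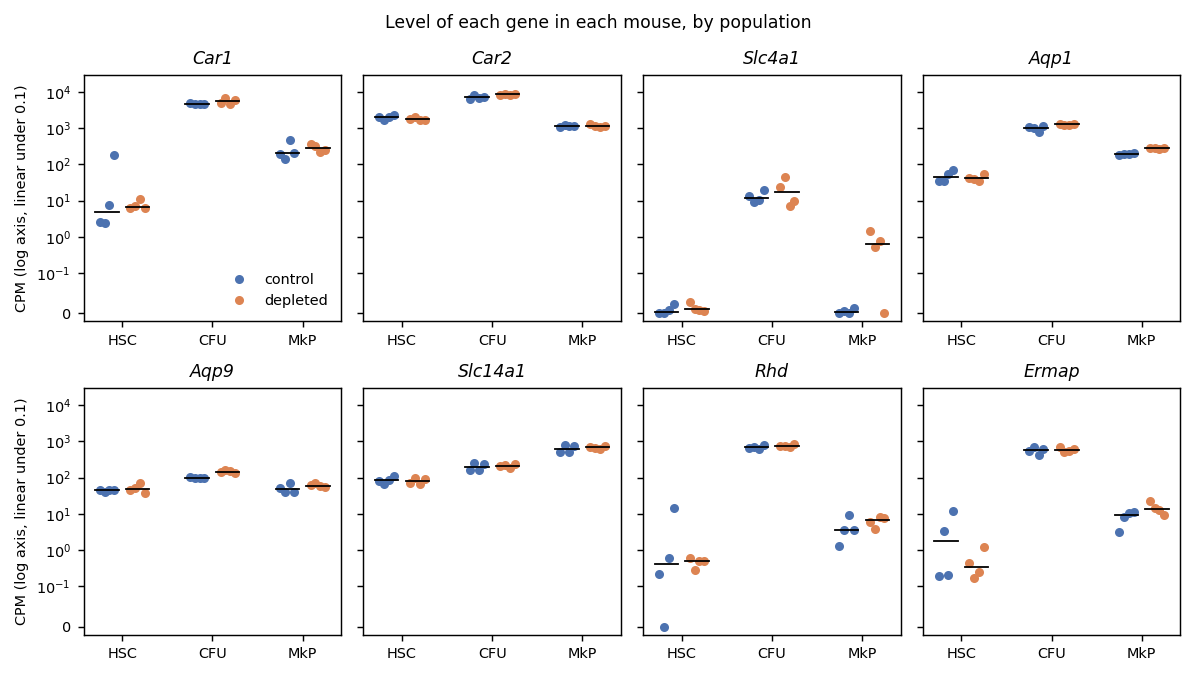
Level of each gene in CPM (log axis, linear under 0.1) in HSC, CFU and MkP, with 1 point per mouse, control and depleted drawn apart and a line at each group's median. All 8 genes have their 8 CFU points above their 8 HSC points, and Slc14a1 is the gene whose MkP points lie above its own CFU and HSC points.

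Car1 encodes the abundant cytosolic carbonic anhydrase of red cells and lies on chromosome 3 (GRCm38, 14766216 to 14808368, minus strand). In HSC its level was 2.6, 2.39, 7.37 and 177 CPM in the 4 control mice and 6.39, 7.19, 10.8 and 6.36 CPM in the 4 depleted mice. The value of 177 CPM in control mouse 4 stood far above the rest, and 95.6% of that mouse's 23983 Car1 counts came from 2 of its 79 HSC cells. CFU cells held 4873, 4516, 4526 and 4688 CPM in control mice and 5004, 6798, 4687 and 5888 CPM in depleted mice. Car1 therefore ranged over 3 levels, lowest in HSC, intermediate in MkP (138 to 481 CPM, median 233, n = 8) and highest in CFU, with 1 HSC mouse inside the MkP range. For CFU against HSC the log2 fold change was 7.82 ± 0.91 (SE; edgeR adjusted p = 6.47e-08), and 9.75 without control mouse 4. MkP against HSC differed by 3.58 ± 0.76 (edgeR adjusted p = 0.000792), or 5.57 without that mouse.

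Car2, the high-activity carbonic anhydrase made in red cells and many other tissues, lies on chromosome 3 as Car1 does (14886273 to 14900770, plus strand) but followed another pattern. HSC already held much of it, 2050, 1628, 2034 and 2274 CPM in control mice and 1821, 2068, 1675 and 1619 CPM in depleted mice. CFU levels were 6480, 7938, 6554 and 7402 CPM in control mice and 8327, 8779, 8425 and 8834 CPM in depleted mice. MkP levels were the lowest and the most even, 1092, 1202, 1173 and 1146 CPM in control mice and 1259, 1118, 1043 and 1167 CPM in depleted mice. No MkP mouse overlapped an HSC mouse and no HSC mouse a CFU mouse. Car2 was thus 4.14-fold higher in CFU than in HSC by the ratio of means (log2 fold change 2.05 ± 0.08, edgeR adjusted p = 6.88e-16), and it was the 1 gene of the 8 that fell from HSC to MkP, by 0.72 ± 0.08 on the log2 scale (edgeR adjusted p = 2.14e-07).

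Slc4a1, the band 3 gene on chromosome 11 (102348824 to 102366203, minus strand), was the rarest of the 8. Across all 697 HSC cells it had 13 counts, with 0 in control mice 1 and 2, where 3 counts, the limit that a count of 0 allows, would be 0.0436 and 0.0229 CPM. Such limits cover counting error only. Its CFU levels were 13.4, 9.35, 10.2 and 19.9 CPM in control mice and 24.2, 44.1, 7.32 and 9.99 CPM in depleted mice, with depleted mouse 2 well above the rest. In MkP the 4 control mice had 0, 2, 0 and 3 counts and the depleted mice 485, 166, 267 and 0, and in each of the 3 mice with over 100 counts nearly all came from 1 cell. The log2 fold change of CFU against HSC was 11.13 ± 1.43 (edgeR adjusted p = 3.40e-07), a size that depends on the prior count with HSC near 0, and 6.62 with each cell thinned to 20000 counts. The call for MkP against HSC (4.02 ± 1.29, edgeR adjusted p = 0.0195) rested on those single cells. It was lost with the mouse as block (3.49, adjusted p = 0.0693), without depleted mouse 1 (3.35, adjusted p = 0.0875), without depleted mouse 2 (3.67, adjusted p = 0.0824) and without depleted mouse 3 (3.50, adjusted p = 0.0759), all in edgeR's quasi-likelihood test, and with each cell thinned to 20000 counts the log2 fold change was 0.07.

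Aqp1 encodes the water channel of the red cell membrane (chromosome 6, 55336432 to 55348555, plus strand). Its levels rose in 2 clear steps. HSC held 34.5, 34.8, 54.8 and 68.5 CPM in control mice and 43.3, 40.4, 34.9 and 54.8 CPM in depleted mice. MkP held 182, 188, 198 and 206 CPM in control mice and 278, 282, 261 and 284 CPM in depleted mice. CFU held 1043, 979, 776 and 1130 CPM in control mice and 1283, 1235, 1183 and 1289 CPM in depleted mice. No mouse of one population reached the range of the next. The log2 fold change was 2.33 ± 0.14 for MkP against HSC (edgeR adjusted p = 5.92e-11) and 2.25 ± 0.14 for CFU against MkP (edgeR adjusted p = 4.67e-12), and within each mouse the ratio of MkP to HSC lay between 3.01 and 7.50.

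Aqp9, the gene of the glycerol-conducting aquaporin (chromosome 9, 71110659 to 71168682, minus strand), varied least between populations. In HSC it stood at 45.2, 41.2, 45.1 and 44.8 CPM in control mice and 46.6, 51, 72.5 and 38.1 CPM in depleted mice. The MkP values, 52.9, 41.4, 71.1 and 40.9 CPM in control mice and 60.9, 69.9, 60.4 and 55.7 CPM in depleted mice, overlapped them. CFU values were 105, 99.9, 96 and 97.7 CPM in control mice and 140, 158, 151 and 138 CPM in depleted mice, above every HSC and MkP mouse. The log2 fold change was 1.34 ± 0.12 for CFU against HSC (edgeR adjusted p = 7.68e-10). For MkP against HSC it was 0.24 ± 0.12 (edgeR adjusted p = 0.137), not called, but called at 0.32 without depleted mouse 3 (edgeR adjusted p = 0.0482).

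Slc14a1, the urea transporter gene, ran opposite to the others between the committed populations. MkP held 497, 803, 516 and 736 CPM in control mice and 698, 660, 618 and 733 CPM in depleted mice. CFU held 168, 259, 158 and 231 CPM in control mice and 208, 218, 183 and 232 CPM in depleted mice. HSC held 83, 68.7, 86.5 and 108 CPM in control mice and 71.7, 97.0, 68 and 90.7 CPM in depleted mice. The ranges of the 3 populations did not overlap. MkP exceeded HSC by 2.96 ± 0.13 (log2; edgeR adjusted p = 7.97e-13), and for CFU against MkP the log2 fold change was -1.67 ± 0.12 (edgeR adjusted p = 7.32e-11). Mice with much Slc14a1 in MkP also had much in CFU, and the CFU to MkP ratio within a mouse kept to 0.296 to 0.337 over the 8 mice.

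Rhd, the Rh blood group gene of the mouse (chromosome 4, 134864536 to 134896172, plus strand), was high in CFU and low in MkP and HSC. CFU levels were 638, 720, 615 and 788 CPM in control mice and 757, 762, 705 and 858 CPM in depleted mice. MkP held between 1.33 and 9.07 CPM (median 4.93, n = 8). In HSC the control mice had 0.213, 0, 0.603 and 14.7 CPM and the depleted mice 0.597, 0.284, 0.513 and 0.518 CPM. The 0 of control mouse 2 allows up to 0.0229 CPM, and 94.6% of the 1997 counts of control mouse 4 came from 2 cells. The log2 fold change was 8.63 ± 1.03 for CFU against HSC (edgeR adjusted p = 1.01e-07), or 10.9 without control mouse 4, and 7.03 ± 0.94 for CFU against MkP (edgeR adjusted p = 9.45e-07). MkP against HSC, at 1.60 ± 0.82, was not called (edgeR adjusted p = 0.151). It was called at 3.87 without control mouse 4 (edgeR adjusted p = 2.33e-06) and at 3.06 with the mouse as block (edgeR adjusted p = 0.00609).

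Ermap, an immunoglobulin-family protein of the erythroid cell surface (chromosome 4, 119175457 to 119190011, minus strand), showed a like order. Its CFU levels were 527, 708, 430 and 608 CPM in control mice and 679, 523, 543 and 602 CPM in depleted mice. MkP values, 3.26, 8.12, 10.6 and 11.3 CPM in control mice and 23.1, 14.1, 12.8 and 9.26 CPM in depleted mice, lay far below. HSC values were 0.2, 3.30, 0.211 and 11.8 CPM in control mice and 0.435, 0.168, 0.256 and 1.23 CPM in depleted mice, and 94.8% of the 1595 counts of control mouse 4 were in 2 cells. The log2 fold change was 8.23 ± 0.90 for CFU against HSC (edgeR adjusted p = 2.37e-08) and 2.66 ± 0.74 for MkP against HSC (edgeR adjusted p = 0.00820), or 9.42 and 3.80 without control mouse 4. A single HSC cell, the 1 with at least 70% of the erythroid marker list at 10 CPM or more, gave 65.1% of all Rhd counts, 52.2% of Ermap counts and 29.3% of Car1 counts in control HSC. With marker-list cells of another type left out, a setting chosen after seeing the data, the log2 fold change of CFU against HSC was 9.62 for Rhd, 8.96 for Ermap and 8.11 for Car1.

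**Figure D2:**
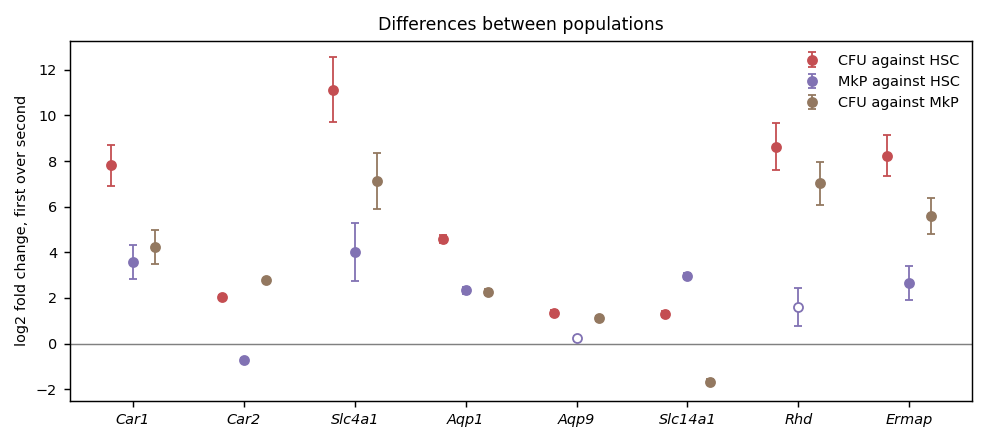
Log2 fold change of each gene with its standard error for CFU against HSC, MkP against HSC and CFU against MkP, from the fit over all 24 sums, with open points where the difference was not called. Slc14a1 is the gene below 0 for CFU against MkP (-1.67) and Car2 the gene below 0 for MkP against HSC (-0.72).

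Per kilobase of exon, which allows levels to be compared between genes, the carbonic anhydrases led in CFU. The mean level there was 4105 CPM per kb for Car1 (3619 to 5447 over 8 mice) and 3238 for Car2 (2675 to 3647), 2 ranges that overlapped slightly. Rhd at 458 CPM per kb (386 to 538) and Aqp1 at 424 (295 to 491) came next and overlapped as well, followed by Ermap at 109, Slc14a1 at 51.8, Aqp9 at 29.7 and Slc4a1 at 3.54. In MkP the order of means was Car2 at 475 CPM per kb, Car1 at 219, Slc14a1 at 165 and Aqp1 at 89.4, with Car1 (110 to 385) overlapping Slc14a1 (124 to 201). In HSC Car2 stood alone at 783 CPM per kb (669 to 939), and Slc14a1 at 21.1, Aqp1 at 17.4 and Aqp9 at 11.6 (9.18 to 17.5) followed, with Aqp1 (13.1 to 26.1) overlapping both its neighbours. The HSC mean of Car1, 22 CPM per kb, was set by control mouse 4 at 142, and the other mice held 1.91 to 8.69, below every mouse for Aqp9.

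Detection in single cells was given per mouse as the share of cells with at least 1 count. With each cell thinned to 100000 counts, Car2 was seen in a median of 99.4% of MkP cells per mouse, and in CFU the median over 8 mice was 98.7% for Car1, 98.8% for Aqp1, 97.8% for Slc14a1, 97.0% for Rhd and 98.2% for Ermap. Aqp9 was found in 81.8% of CFU cells (75 to 90.3), 39% of MkP cells (26.8 to 50.3) and 31.5% of HSC cells (21.3 to 44.3). Aqp1 was seen in most MkP cells, 87.3% (81.5 to 90.8), but in 36.2% of HSC cells (22.8 to 46.2). Slc4a1 appeared in 6.83% of CFU cells (2.5 to 12.6), and 19 of 647 CFU cells had 100 CPM or more, a small share of a population in which nearly all cells had Rhd and Ermap.

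Detection and level did not always go together. Car1 had a count in 39.9% of thinned HSC cells (6.33 to 59 over the mice), and unthinned in 568 of 697, but the median HSC cell held 4.45 CPM and 7 of 697 cells reached 100 CPM. MkP cells were spread differently, with Car1 in 33.3% of thinned cells (26.7 to 56.7) and at 100 CPM or more in 164 of 1324 cells, so that a minority carried most of the 138 to 481 CPM of the sums. Rhd and Ermap were each seen in few MkP cells, 6.48% (1.83 to 8.28) and 6.36% (3.85 to 9.55). The median cell had a count for 3 of the 8 genes in HSC, 4 in MkP and 7 in CFU.

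**Figure D3:**
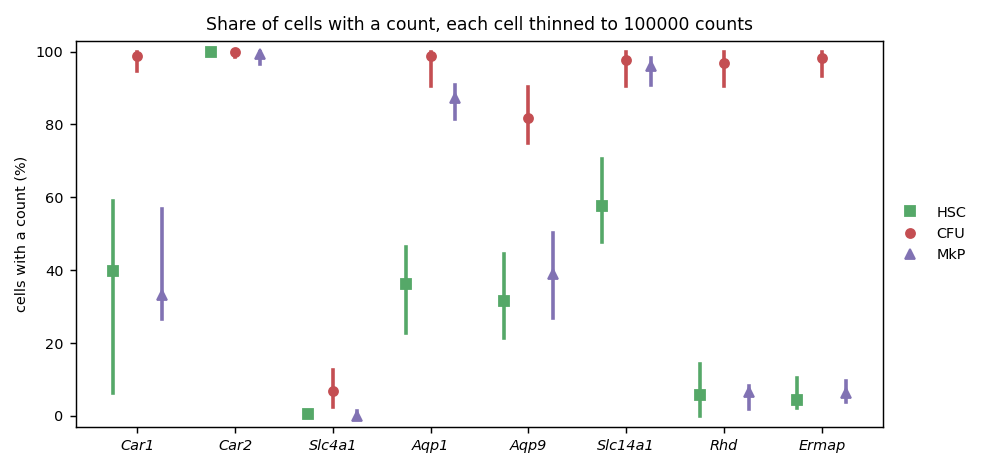
Share of cells with at least 1 count for each gene after thinning each cell to 100000 counts, in percent, with the median over 8 mice as the point and the lowest and highest mouse as the ends of the line, coloured by population. Car2 is near the top everywhere, Rhd and Ermap separate CFU (90.5% or more) from HSC and MkP (14.1% or less).

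Among CFU cells the genes split by their median correlation with the hemoglobin genes. Spearman's rho across cells of a mouse with the summed hemoglobin CPM had a median over 8 mice of 0.69 for Rhd (0.60 to 0.80), 0.50 for Car2 (0.38 to 0.76), 0.43 for Ermap (0.03 to 0.54), 0.41 for Aqp1 (0.35 to 0.62) and 0.36 for Slc14a1 (0.12 to 0.53), while Car1 (-0.24, from -0.53 to 0.00) and Aqp9 (-0.19, from -0.39 to 0.03) ran the other way or flat. The ranges of Ermap and Aqp9 overlapped slightly. These are descriptions over 647 cells, whose values share each cell's library and total. The same split appeared between cells that held the erythroid marker list and cells that did not. In control mice Rhd averaged 754 ± 36 CPM (SD, n = 4) in list-holding CFU cells and 431 ± 88 CPM in the others, and Slc4a1 ranged from 17.5 to 29.1 CPM against 0 to 0.876 CPM. Aqp9 averaged 68.6 ± 15.5 CPM in list-holding cells and 98.9 ± 10.5 CPM in the others, and Car1 3520 ± 177 and 4386 ± 502 CPM. The marker list holds a hemoglobin gene, and these values within CFU are on the plain CPM scale without TMM.

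In MkP cells the erythroid members went together in a minority. Cells with Car1 after thinning (478) had Rhd in 11.7% and Ermap in 14.6%, against 2.50% and 1.78% of cells without Car1. Klf1 was seen in 54% of Car1-positive and 31% of Car1-negative MkP cells, and Pf4, the platelet factor 4 gene, in 77.4% and 91.1%. Among the 1260 cells with Slc14a1, Pf4 was seen in 87.9%, Epor, the erythropoietin receptor gene, in 49.9% and Klf1 in 39.6%, against 49.2%, 27.1% and 33.9% of the 59 cells without it. Aqp1-positive MkP cells (1146 of 1319) had Pf4 in 86.8%, Epor in 51.2% and Klf1 in 40.8%, against 81.5%, 33.5% and 29.5% of Aqp1-negative cells. All 3 marker genes were thus seen more often with either gene. Across MkP cells without thinning the median rho was 0.46 for Car1 with Ermap (404 cells with a count of both), 0.41 for Car1 with Rhd (400 cells with a count of both) and -0.37 for Car2 with Slc14a1.

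**Figure D4:**
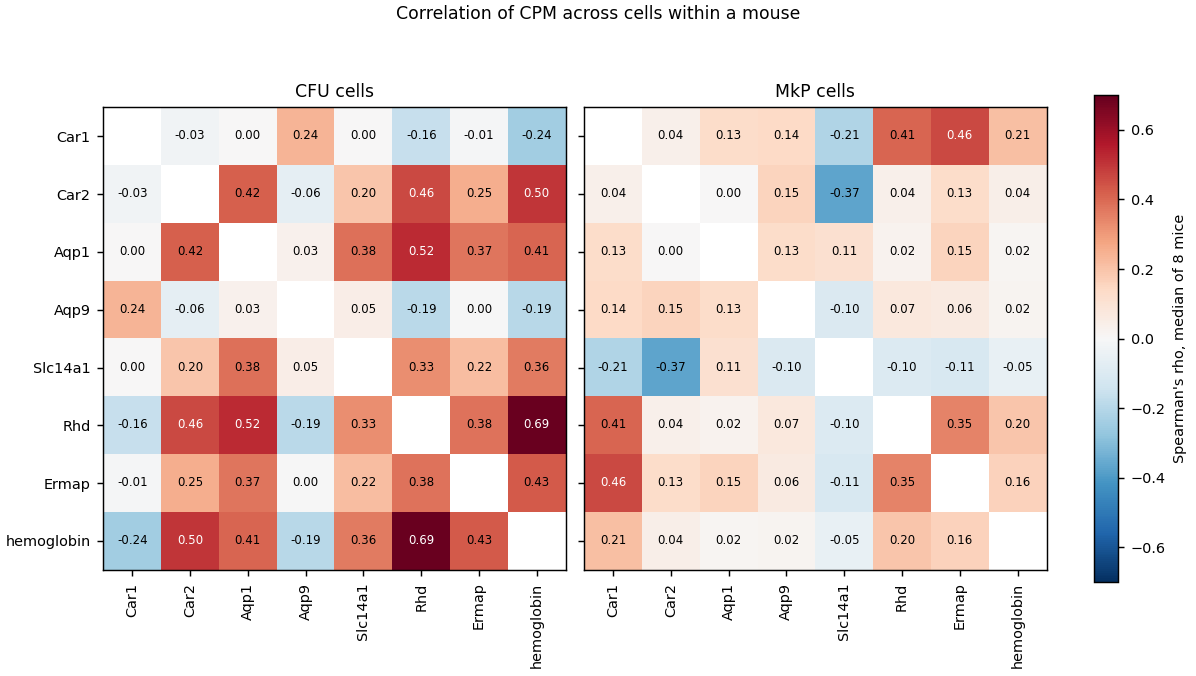
Median over 8 mice of Spearman's rho of CPM across single cells, for pairs of 7 of the genes (Slc4a1 left out) and the summed hemoglobin genes, in CFU and MkP. In CFU the highest value with hemoglobin is that of Rhd (0.69) and the lowest that of Car1 (-0.24), and in MkP the lowest is Car2 with Slc14a1 (-0.37).

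The near relatives of these genes gave a mixed picture. Of 14 other carbonic anhydrase genes 9 were tested, and 0 were called higher and 5 lower in CFU than in HSC by edgeR. Over all genes tested 28.8% were called higher and 36.1% lower in this comparison. Car9, a membrane carbonic anhydrase induced by low oxygen, was at 18.8 ± 4.5 CPM (SD, n = 8) in HSC and 1.80 ± 1.16 CPM in CFU, a log2 fold change of -3.39 ± 0.36 (edgeR adjusted p = 1.95e-08). Car13 and Car3 were low everywhere, with means between 7.31 and 16.2 CPM, and were not called in CFU against HSC (edgeR adjusted p = 0.441 and 0.110). Of 10 other aquaporin genes 2 were tested and both were called higher in CFU than in HSC: Aqp11, an intracellular aquaporin, at 41.8 ± 8.2 against 8.48 ± 2.92 CPM (log2 fold change 2.30 ± 0.21, edgeR adjusted p = 1.64e-09), and Mip, the lens aquaporin, at 1.65 ± 0.74 against 0.0239 ± 0.0331 CPM. Among 13 other Slc4, Slc14 and Rh genes 9 were tested, 1 was called higher and 3 lower in CFU. The 1 higher was Rhag, partner of the Rh protein, at 463 ± 63 CPM in CFU, 3.65 ± 3.93 CPM in HSC and 5.26 ± 2.21 CPM in MkP, high in CFU as Rhd was. The anion exchanger gene Slc4a2 and the bicarbonate cotransporter gene Slc4a7 had means of 12.7 to 22.5 CPM in all 3 populations and were not called in any of the 3 comparisons.

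The partners of band 3 and Rh in the membrane and its skeleton were mostly called higher in CFU: 13 of 15 tested genes higher and 1, the tropomodulin gene Tmod1, lower than in HSC, with a median log2 fold change of 4.76. The 3 most abundant had smaller differences than any member. Cd47, the inhibitory surface protein that joins the Rh complex, differed by 0.58 ± 0.05 (edgeR adjusted p = 9.78e-10), the glycophorin C gene Gypc by 0.91 ± 0.09 (edgeR adjusted p = 5.96e-09) and the adducin gene Add1 by 0.39 ± 0.08 (edgeR adjusted p = 0.000120). Of 12 other red cell transport genes 6 were called higher and 5 lower in CFU than in HSC. For both lists the shares over all genes tested were 28.8% higher and 36.1% lower. Slc29a1, the equilibrative nucleoside transporter, was higher by 3.24 ± 0.14 (edgeR adjusted p = 2.45e-15), Bsg, the partner of lactate transporters, by 1.58 ± 0.06 (edgeR adjusted p = 3.70e-16), and the potassium channel gene Kcnn4 by 1.08 ± 0.07 (edgeR adjusted p = 1.08e-12). In MkP against HSC these lists split, 7 higher and 2 lower for the band 3 and Rh partners and 3 higher and 4 lower for the other transport genes. Over all genes tested 17.4% were called higher and 13.6% lower there.

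The genes most like each member over the 24 sums were found by Pearson's r of log2 CPM, a description in which sums of one population share their cells' identity. Aqp1 was nearest to Klf1 (0.987), Epor (0.986) and Sarnp (0.985), and Rhd to Cldn13 (0.992), Slc38a5 (0.986) and Sphk1 (0.984). Car1 ran close to Atp1b2 (0.988) and Gm5843 (0.984), and Car2 to Uap1 (0.984), Pnp (0.982) and Selenbp1 (0.982). Slc14a1 had P2ry1, a platelet ADP receptor gene (0.948), Rfc2 (0.943) and Ache, the acetylcholinesterase gene (0.941), as nearest genes. Ermap was nearest to Kel, the Kell blood group gene (0.969), Mrpl22 (0.967) and Add2 (0.967), Slc4a1 to Tspan15 (0.959), Prkab1 (0.951) and the alpha-globin gene Hba-a1 (0.942), and Aqp9 to Ero1l (0.948), 1110038B12Rik (0.948) and Slc19a1 (0.947). Between members the highest value was that of Car1 with Aqp1 (0.974) and the lowest that of Car2 with Slc14a1 (-0.295).

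In CFU 3 of the 8 genes, Aqp9, Aqp1 and Car2, had all 4 depleted mice above all 4 control mice, a pattern shown by 5.51% of the 15661 genes tested there. Since the members were chosen partly on this contrast, the count is given without a reading. Aqp9 lay between 96 and 105 CPM in control mice and between 138 and 158 CPM in depleted mice, a log2 fold change of 0.50 ± 0.08 (SE). With cells pooled over mice, 106 of 300 control and 179 of 347 depleted CFU cells had 100 CPM or more. The share of thinned CFU cells with an Aqp9 count overlapped, at 75 to 83.8% in control and 79.3 to 90.3% in depleted mice. The fold changes of Aqp1 (0.28 ± 0.11) and Car2 (0.22 ± 0.06) were smaller than that of Aqp9. The remaining values were 0.20 ± 0.09 for Car1, 0.62 ± 0.52 for Slc4a1, 0.10 for Rhd, -0.01 for Slc14a1 and -0.01 for Ermap, all with overlapping mice. Fewer cells of a type and less RNA per cell cannot be told apart in such sums. The share of CFU cells holding the erythroid list was 142 of 300 in control mice and 118 of 347 in depleted mice, and the summed list ranged over 1321 to 1703 and 1491 to 1566 CPM. Among cells without the list Aqp9 was 89.5 to 111 CPM in control and 124 to 157 CPM in depleted mice, and among cells with it 55.3 to 90.8 and 87 to 94.5 CPM. Aqp1 was 497 to 830 against 907 to 1034 CPM without the list and 851 to 1093 against 1112 to 1360 CPM with it. Car2 was 4553 to 6039 against 6290 to 7140 CPM without the list and 6266 to 7591 against 7301 to 8729 CPM with it. Rhd was 347 to 509 against 491 to 544 CPM without the list and 733 to 807 against 864 to 901 CPM with it. Car1, Slc14a1, Slc4a1 and Ermap overlapped in both kinds of cell. The share of all genes with groups apart was not computed for these cells, so no reading is given. Neutrophil and myeloid markers, of interest because leukocytes also make Aqp9, summed to 2.26 to 4016 CPM in control and 2.03 to 939 CPM in depleted CFU, and their part in the Aqp9 difference was not tested.

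In MkP 1 of the 7 genes tested, Aqp1, had all depleted mice above all control mice, as did 4.25% of the 18512 genes tested. Its levels of 182 to 206 CPM in control and 261 to 284 CPM in depleted mice gave a log2 fold change of 0.53 ± 0.07 (SE). With cells pooled over mice, the median MkP cell held 157 CPM of Aqp1 in control and 239 CPM in depleted mice. At 100 CPM or more were 418 of 644 against 519 of 680 cells. The share of thinned MkP cells with an Aqp1 count overlapped between the groups. Its median over mice was 86.9% (85.4 to 90.8) in control and 87.3% (81.5 to 89.2) in depleted mice. Ermap (0.85 ± 0.40), Rhd (0.56 ± 0.52), Aqp9 (0.27 ± 0.18) and Car1 (0.21 ± 0.36) had values above 0 with overlapping mice. With the lower title number of the MkP wells alone the value was -0.09 for Ermap, -0.31 for Rhd and -0.19 for Car1, so their direction turned with that choice of wells. Slc14a1 (0.10) and Car2 (0.01) lay near 0. Slc4a1 was not tested there. The erythroid list summed to 89.5 to 151 CPM in control and 126 to 168 CPM in depleted MkP, the megakaryocyte list to 3885 to 5849 and 3574 to 4098 CPM, with no gene of either list at 0, and the part of these markers, and of the lower gene number per cell, in the Aqp1 difference was not tested. Over all genes edgeR called 0.0108% in MkP (2 genes of 18512) and 0% in CFU (0 of 15661). Without adjustment 2532 MkP and 1857 CFU genes had a p under 0.05 in edgeR, and DESeq2 called 1392 and 849.

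**Figure D5:**
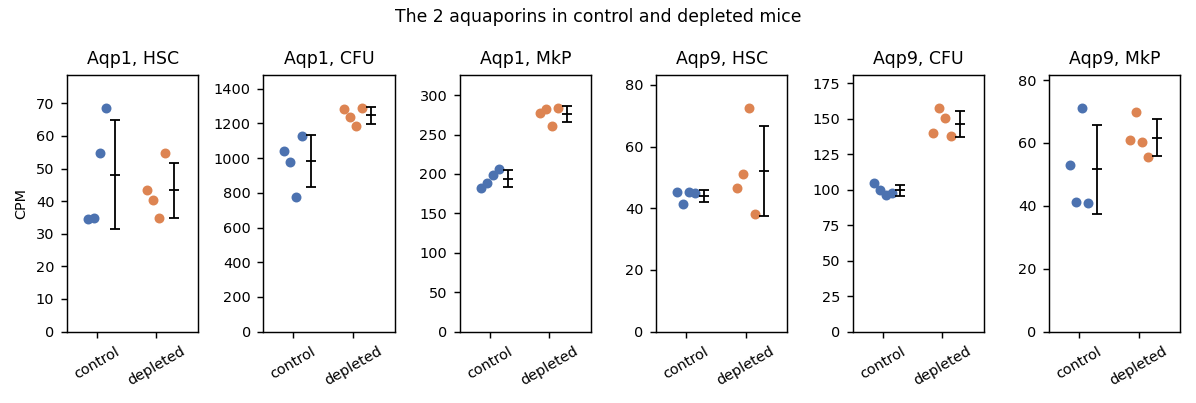
Aqp1 and Aqp9 in CPM in control and depleted mice, in each population, with 1 point per mouse and the group mean and SD. Depleted mice lie above control mice for Aqp1 in CFU and MkP and for Aqp9 in CFU, and the points overlap in HSC and for Aqp9 in MkP.

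In HSC the members were tested, and none of the 7 tested was called or had groups that did not overlap, where 2.92% of 17146 genes had all depleted mice above all control mice, 5.18% had them all below, and 0% were called after Benjamini-Hochberg adjustment by edgeR. At an unadjusted p under 0.05 there were 1467 genes and 0 of the members, and DESeq2 called 664 genes and 0 of the members to which it gave an adjusted p. The log2 fold changes, depleted over control, were -0.17 for Car2 (edgeR adjusted p = 0.707), -0.16 for Aqp1 (0.896), 0.23 for Aqp9 (0.797) and -0.10 for Slc14a1 (0.913). Car1 (-2.62, edgeR adjusted p = 0.608), Rhd (-3.02, edgeR adjusted p = 0.657) and Ermap (-2.90, edgeR adjusted p = 0.591) had the lowest values, and without control mouse 4 they were 0.90, 0.82 and -1.30. The erythroid list summed to 33 to 90.1 CPM in control and 23.5 to 31.6 CPM in depleted HSC, and its part in these 3 values was not tested. Whether the depleted-minus-control difference in Aqp1 or Aqp9 differs between populations was not tested.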

How the data were processed

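The deposited matrix holds raw read counts per gene and well, made by the authors with Trim Galore 0.5, STAR 2.6.0 and HTSeq 0.6.1, per the submitters' processing notes; build and annotation: not given in the sources used here. The matrix has 55401 gene rows and 3070 columns of wells, of which 1 matched no sample title and was not used. Wells with at least 20000 counts, at least 1000 genes and at most 20% mitochondrial counts were kept, and raw counts were summed per mouse and population, because cells are not replicates. The sums were fitted with edgeR 4.0.16 (TMM, filterByExpr, quasi-likelihood test, Benjamini-Hochberg over all genes tested, called under 0.05) in R 4.3.3, populations together with treatment as a term and treatment within each population. The code was tested on simulated data. Gene positions and exon lengths are from a GENCODE annotation of GRCm38, in which no exon of the 8 genes overlaps another gene's exon. It may not be the build the authors used. Reads carry no molecular identifiers, so the number of counts overstates the number of molecules.

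Mice were told apart by the code in the well titles. The same mouse gave all 3 populations, which pairs them, and the fit with the mouse as a block was an alternative, with DESeq2 1.42.0, no filter on low counts, thinned cells, other cell filters, only the populations compared, either title number of MkP wells and each mouse left out. Leaving out cells that held another cell type's marker list in HSC as well was chosen after seeing the data. The members and the gene lists were chosen with earlier results of these data known. Named genes were all 8 members, the 3 genes with the highest mean CPM among those tested of each pathway list, and the 3 genes with the highest r to each member, of which 1 is not reported here. Other genes named were members of the marker lists, or were chosen after their values were seen (Tmod1 among them). Promoter windows are RefSeq's on GRCm38.p6. Windows for Car1, Car2, Slc4a1 and Slc14a1 were not used here, and a second Aqp9 window was not printed.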

Additional observations from a re-analysis of the deposited data

Results flagged for a closer look

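Among 46 groups of 4 mice, 3 held 1 mouse far from the other 3, where chance gives about 1 in 20 groups. All 3 were groups of control HSC. Car1 in control mouse 4 was 177 CPM, against 2.39 to 7.37 CPM in the other control mice, and 95.6% of its counts came from 2 cells. Rhd in the same mouse was 14.7 CPM against 0 to 0.603 CPM, with 94.6% of counts in 2 cells. Aqp9 in control mouse 2 was 41.2 CPM against 44.8 to 45.2 CPM, a small gap in a group whose other 3 mice lay very close together.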

How the results depend on the processing

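The members called stayed at 6 to 8 for CFU against HSC and for CFU against MkP, at 5 to 7 for MkP against HSC and at 0 for treatment in HSC under every alternative run, and no value changed direction past a threshold. DESeq2 gave no adjusted p for Car1 and Rhd. For MkP against HSC, Slc4a1 lost its call with thinned cells (0.07), without cells of another type (3.1), with the mouse as replicate block (3.49) and without depleted mouse 1, 2 or 3 (3.35 to 3.67), and Rhd gained one with thinned cells (2.15), without cells of another type (2.54), with the mouse as replicate block (3.06) and without control mouse 4 (3.87). Aqp9 gained one at 0.32 without depleted mouse 3. The block changed no other call among the members. For depleted against control, Aqp9 in CFU was 0.32 with thinned cells and 0.47 to 0.54 with 1 mouse left out, and Aqp1 in MkP was 0.42 with thinned cells, 0.43 with the lower title number of the MkP wells, 0.59 with the higher and 0.50 to 0.56 with 1 mouse left out. In MkP Car2 was -0.11 with thinned cells and -0.14 with the lower title number, Rhd -0.31 and Ermap -0.09 with the lower, and Car1 -0.19. Genes called over all were 8454 for CFU against HSC with thinned cells. For treatment, thinned cells gave 48 genes in HSC, 16 in CFU and 53 in MkP, DESeq2 gave 664, 849 and 1392, and MkP gave 0 with either title number and 0 to 1 with 1 mouse left out. Causes of these shifts were not tested. Of 48 detection shares 30 moved with thinning. Counts near 0 limit Slc4a1, Rhd and Ermap in HSC and MkP, where few cells set the sums.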
